A study of Homo sapiens with 4 samples.

Results

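Cells carry a set of proteins that recognise double-stranded RNA in the cytosol, and transcripts of 9 of them were followed in THP1 cells given double-stranded RNA by transfection: DDX58 (RIG-I), IFIH1 (MDA5), DHX58 (LGP2), MAVS, EIF2AK2 (PKR), OAS1, OAS2, OAS3 and ADAR. Members were taken by gene name alone, as all non-control probes of the array named for one of these genes, which gave 16 of 34127 probes, for 9 of 27193 gene names. THP1 is a human monoblastic acute myeloid leukemia cell line with the fusion gene MLL-AF9, which all arrays share. The cells were transfected with 30 nM of a synthetic miRNA mimic, either hsa-miR-511-5p or negative control #1, kept in low-serum medium and harvested on day 2. The same pair of transfections was made in 2 independent experiments, so there were 4 single-dye Agilent arrays, 2 per mimic, from 1 slide. Both mimics are short double-stranded RNAs, and no array measured untransfected cells, so a response that both mimics share and the resting level of these transcripts cannot be told apart here.

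RIG-I, MDA5 and LGP2 are related RNA helicases. RIG-I and MDA5 bind double-stranded RNA and signal through MAVS, an adaptor on the outer membrane of mitochondria, to kinases that activate IRF3 and IRF7 and switch on type I interferon, while LGP2 lacks the signalling domains and modulates the other two. PKR is a kinase that, once bound to double-stranded RNA, phosphorylates the translation factor eIF2 and lowers protein synthesis, and the OAS enzymes respond to the same ligand by making oligoadenylates, messenger molecules that lead to the decay of cellular and viral RNA. ADAR edits adenosine to inosine in double-stranded RNA and so marks it as the cell's own. Apart from MAVS, most of these genes are themselves known to be induced by interferon.

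The sequence that told the mimics apart is the mature strand of miR-511, shown because it is the only designed difference between the arrays of 1 experiment. The sequence is that of RefSeq (GRCh38.p14, plus strand, chr10:17845122-17845142), 5′ to 3′, with the seed, bases 2 to 8, in capitals. The control mimic's sequence was not used here.
hsa-miR-511-5p: gUGUCUUUugcucugcaguca

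All member probes were 60 bases long, with a GC content of 35.0% to 53.3%, and none was printed more than once per array. OAS1 and OAS3 descend from a common ancestor, and their probes A_23_P64828 (hg19, chr12:113354461-113354520) and A_33_P3402489 (hg19, chr12:113405902-113405961) were the most alike among the 111 pairs of probes of different members, with 33 identical bases over an ungapped overlap of 55 (60.0%). Both are given 5′ to 3′ on the plus strand with the identical bases in capitals, because one was detected on every array and the other on none.
OAS1 A_23_P64828: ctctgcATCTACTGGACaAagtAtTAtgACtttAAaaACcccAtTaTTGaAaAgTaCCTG
OAS3 A_33_P3402489: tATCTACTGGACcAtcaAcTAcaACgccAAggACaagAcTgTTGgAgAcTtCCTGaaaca

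Per array, 64.8% to 69.3% of all probes were well above background, and 22638 probes, of 18001 gene names, were tested. Myeloid identity was borne out by 13 of the 14 listed myeloid genes on the array, among them MPO, CD33, SPI1 and CD14, which were well above background on 4 of 4 arrays. COL1A1, COL1A2, COL3A1, EPCAM, CDH1, CD3G and MS4A1 were well above background on 0 arrays, whereas CD3D, CD8A, CD79A and CD79B were on all 4. Number of arrays limits the precision of everything that follows: 95% intervals for the difference between the mimics reached from 0.24 to 1.13 to either side on the log2 scale over the 15 tested member probes. The fit had no term for the experiment, so these intervals also hold the shift between experiments. With that term the SE was smaller for every tested member probe but OAS3 A_24_P335305, for example 0.085 instead of 0.192 for DHX58. For that OAS3 probe it was 0.290 instead of 0.260. The labels say that the experiments were independent and nothing about what differed between them, so p-values describe the spread between these 4 arrays.

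All sensors were detected. Of the 16 probes, 15 were well above background on 4 of 4 arrays, and 8 of the 9 genes had every probe detected. The exception was OAS3 A_33_P3402489, which no array showed well above background, so it has no fold, although the other OAS3 probe, A_24_P335305, was on all. No member spot was saturated or marked by the scanner software. Levels are given as the log2 of the normalised intensity, and since probes bind their targets with different strength they compare a gene with itself across arrays and not 1 gene with another. ADAR had the narrowest spread, 14.17 to 14.23 over the 4 arrays. OAS1 had the widest among detected probes, 4.57 to 5.69.

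**Figure D1:**
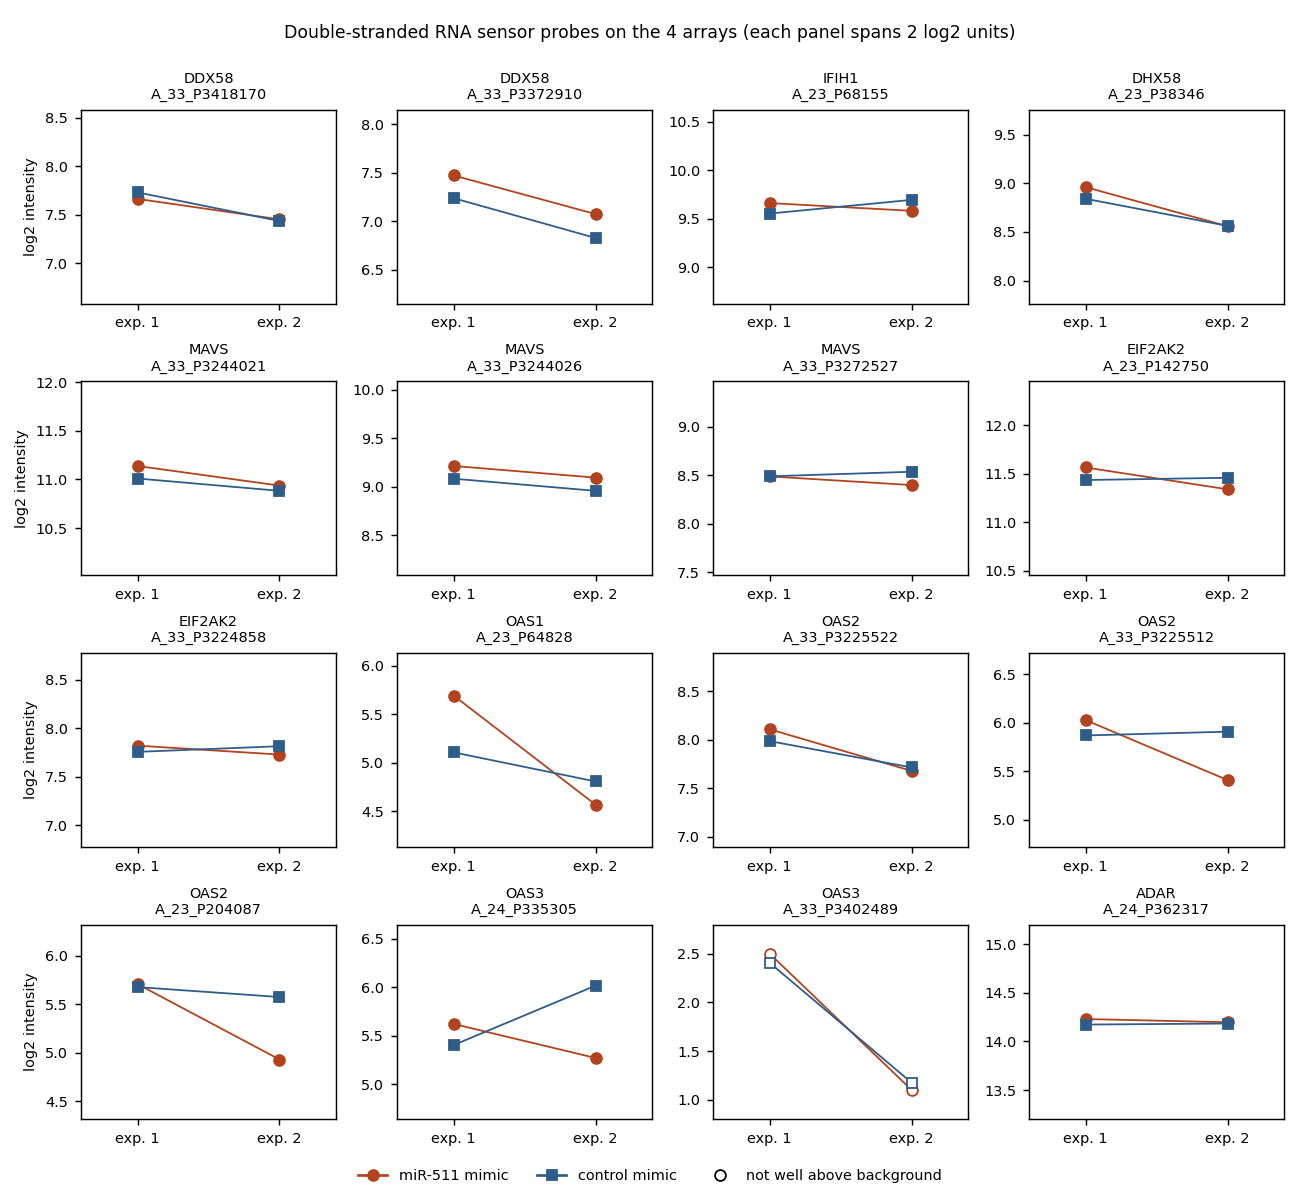
Log2 normalised intensity of the 16 member probes, 1 panel per probe, in experiment 1 and experiment 2 (x axis), with circles for the miR-511 mimic and squares for the control mimic; open symbols were not well above background, and every panel spans the same number of log2 units. The lines are nearly flat for ADAR, 14.17 to 14.23, whereas OAS1 on the miR-511 arrays went from 5.69 to 4.57.

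The first comparison asks whether the miR-511 mimic changed the sensors beyond what the control mimic did. None of the 15 tested member probes passed the unadjusted threshold of 0.05 in limma, against 2.20% of all tested probes, and 0 of 15 passed after Benjamini-Hochberg adjustment, where the adjusted p was 0.9999 for each. Of these probes 8 were higher and 7 lower with miR-511, with a median log2 difference of 0.005, beside 0.01 over all tested probes. The values ran from -0.31 for OAS2 A_23_P204087 to 0.24 for DDX58 A_33_P3372910. This does not show that the mimics acted alike on the sensors, since the intervals below leave room for differences.

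Among the helicases, RIG-I has probes at chr9:32455728-32455787 and chr9:32455398-32455457 (hg19, minus strand). DDX58 A_33_P3418170 read 7.66 with miR-511 and 7.73 with control in experiment 1, and 7.45 and 7.44 in experiment 2. Its difference between the mimics was -0.025 (SE 0.154, 95% interval -0.45 to 0.40). DDX58 A_33_P3372910 read 7.47 and 7.24, then 7.07 and 6.83. The second probe was higher with miR-511 in both experiments, by 0.235 and 0.246. Across experiments the mimics overlapped, as the control array of experiment 1 was above the miR-511 array of experiment 2. The difference was 0.24 (SE 0.217, 95% interval -0.35 to 0.835). With a term for the experiment its SE was 0.077 and the unadjusted limma p 0.053, not past the threshold. The 2 probes of DDX58 thus did not give the same sign in experiment 1.

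IFIH1, the MDA5 gene, at chr2:163128806-163128865 (hg19, minus strand), read 9.66 with miR-511 and 9.55 with control in experiment 1, and 9.58 and 9.695 in experiment 2. The mimics overlapped and the order turned between experiments, with a difference of -0.003 (SE 0.104, 95% interval -0.29 to 0.28). DHX58, which encodes LGP2, at chr17:40253459-40253518 (hg19, minus strand), read 8.96 and 8.84, then 8.56 and 8.56. Its arrays were ordered by experiment and not by mimic, and the difference between the mimics was 0.06 (SE 0.192, 95% interval -0.47 to 0.58).

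MAVS has 3 probes on the plus strand of chromosome 20 (hg19, 3847884-3847943, 3856703-3856762 and 3835323-3835382). A_33_P3244021 read 11.14 with miR-511 and 11.01 with control in experiment 1, and 10.94 and 10.88 in experiment 2. A_33_P3244026 read 9.22 and 9.085, then 9.10 and 8.96, so both miR-511 arrays were above both control arrays. A_33_P3272527 read 8.49 and 8.49, then 8.40 and 8.54, with both miR-511 arrays below both control arrays. These probes of the adaptor therefore pointed in opposite directions, at 0.09 (SE 0.121), 0.13 (SE 0.107) and -0.07 (SE 0.095), and none passed the test. Arrays of the mimics did not overlap for these last 2 MAVS probes and ADAR, 3 of 15 member probes, against 25.7% of all tested probes, a share near that background.

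EIF2AK2, the PKR gene, has a probe whose 60 bases lie within chr2:37336386-37341880 (hg19, minus strand), a stretch of 5495 bases, so it reads across a splice junction. This probe, A_23_P142750, is listed for 3 RefSeq transcripts and read 11.57 with miR-511 and 11.44 with control in experiment 1, and 11.34 and 11.46 in experiment 2. The order of the mimics turned between experiments, and the difference was 0.005 (SE 0.118, 95% interval -0.32 to 0.33). A_33_P3224858, at chr2:37368778-37368837 and listed for 1 transcript only, read 7.82 and 7.76, then 7.73 and 7.82, with a difference of -0.01 (SE 0.096).

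The widest differences between mimics within 1 experiment, over the tested member probes, were at OAS1, OAS3 A_24_P335305, OAS2 A_33_P3225512 and OAS2 A_23_P204087. These were also the dimmest tested member probes, with mean log2 values of 5.04 to 5.80. The lowest signal well above background was 2.985 to 3.443 per array. With normexp background correction their pooled differences were 0.09, -0.112, -0.078 and -0.095, in that order. The part of low signal in these differences was not tested. OAS1 read 5.69 with miR-511 and 5.11 with control in experiment 1, a difference of 0.585, and 4.57 and 4.81 in experiment 2, a difference of -0.24. Its pooled difference was 0.17 (SE 0.413), with a 95% interval from -0.96 to 1.31, that is, a ratio of miR-511 to control anywhere from 0.514 to 2.47. OAS3 A_24_P335305, at chr12:113410131-113410190 (hg19, plus strand), read 5.62 and 5.40 in experiment 1, and 5.27 and 6.02 in experiment 2, which is 0.22 in one and -0.745 in the other. Both of these genes changed order with the experiment, and the control array of experiment 2 was the highest of the 4 for OAS3 but not for OAS1.

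OAS2 is read by 3 probes that are listed for different transcripts (hg19, plus strand of chromosome 12). A_33_P3225522, at 113426550-113426609 and listed for transcript variant 3, read 8.11 with miR-511 and 7.985 with control in experiment 1, and 7.68 and 7.71 in experiment 2. A_33_P3225512, at 113448429-113448488 and listed for 2 transcripts, read 6.03 and 5.87, then 5.41 and 5.91. A_23_P204087, at 113448601-113448660 and listed for 1 of those 2, read 5.71 and 5.68, then 4.93 and 5.57. For the last 2 probes 1 array, miR-511 of experiment 2, stood below the other three, and their differences were -0.17 (SE 0.232) and -0.31 (SE 0.286). The first probe, for the other transcript, gave 0.04 (SE 0.197).

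ADAR, at chr1:154554730-154554789 (hg19, minus strand), is read by 1 probe listed for 4 transcripts, so the interferon-induced and constitutive forms were not separated. It read 14.23 with miR-511 and 14.17 with control in experiment 1, and 14.20 and 14.185 in experiment 2. Both miR-511 arrays were above both control arrays, by a difference of 0.035 (SE 0.089, 95% interval -0.21 to 0.28), which is within the error of the fit.

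Within experiments the direction was not repeated. In experiment 1, 13 of the 15 member probes were higher with miR-511 than with the control mimic, with a median log2 difference of 0.12, beside 0.03 over all tested probes. In experiment 2, 5 of 15 were higher, with a median of -0.09, beside -0.001 over all tested probes. The sign was the same in both experiments for 5 of 15 probes (33.3%), beside 50.6% of all tested probes. These 5 were DDX58 A_33_P3372910, the 3 MAVS probes and ADAR. The array of miR-511 in experiment 1 was the highest of the 4 for 11 of 15 member probes, and the array of miR-511 in experiment 2 was the lowest for 9. The same counts were not made over all tested probes, so a tendency of whole arrays cannot be told apart from one of the members. Leaving out single arrays moved OAS1 and 2 of the 3 OAS2 probes. Without the miR-511 array of experiment 1, OAS2 A_33_P3225512 was at -0.47 and OAS2 A_23_P204087 at -0.69. OAS1 was at -0.38 without that array and at 0.74, the opposite sign, without the miR-511 array of experiment 2.

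**Figure D2:**
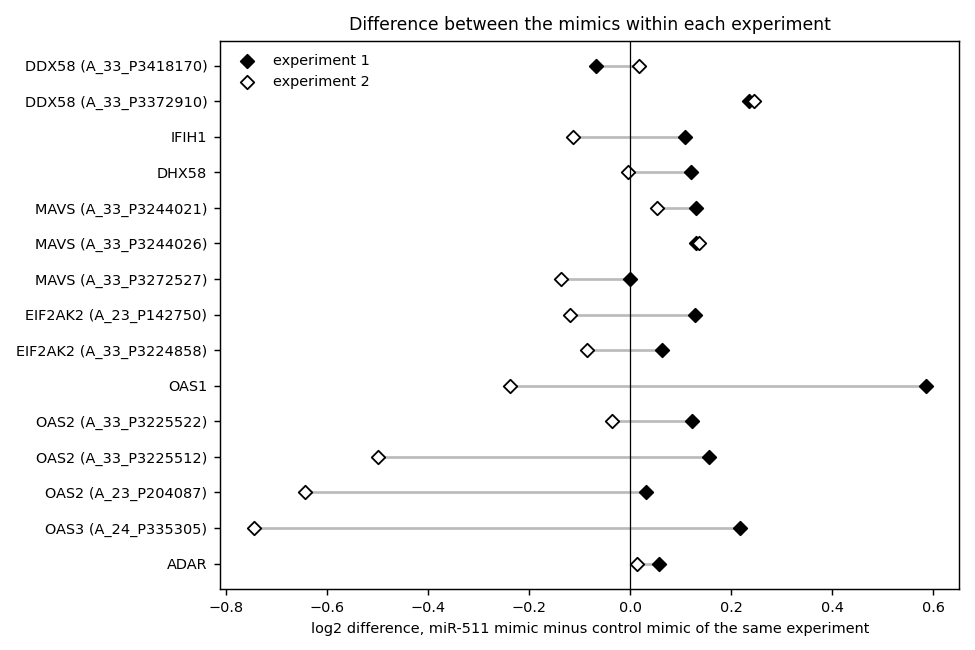
Log2 difference between the miR-511 mimic and the control mimic of the same experiment (x axis) for the 15 tested member probes (y axis), with filled diamonds for experiment 1 and open diamonds for experiment 2, joined by a line per probe. Filled diamonds lie right of 0 for 13 of 15 probes and open ones for 5 of 15, and the longest line belongs to OAS3, from 0.22 to -0.745.

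The second comparison sets the 2 arrays of experiment 2 against the 2 of experiment 1, whichever mimic they received, since both mimics are double-stranded RNA. The median absolute log2 difference of the member probes was 0.16 between experiments and 0.07 between mimics, beside 0.12 and 0.08 over all tested probes. RIG-I, LGP2, OAS1 and 1 OAS2 probe were lower in experiment 2, whereas IFIH1, MAVS, EIF2AK2, OAS3 and ADAR did not pass the test. At the unadjusted threshold 5 of 15 member probes passed, all lower in experiment 2, against 13.6% of all tested probes in either direction. After adjustment over all tested probes 0 of 15 passed, with adjusted p from 0.277 to 0.358 for the 5, and 0 of the 22638 passed, the smallest adjusted p being 0.215. In all 13 of 15 were lower in experiment 2, with a median log2 difference of -0.16, beside -0.01 over all tested probes. Arrays of the experiments did not overlap for 7 of 15 member probes, against 48.9% of all tested probes, which is close to that background.

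OAS1 fell by 0.71 on the log2 scale (SE 0.234, 95% interval -1.35 to -0.07; limma adjusted p 0.349), or to 0.610 of its level in experiment 1. With normexp background correction it was at -0.20 and no longer past the unadjusted threshold, and a plain equal-variance test or testing dim probes too also ended its call. This fall was 1.12 between the miR-511 arrays and 0.30 between the control arrays. Both RIG-I probes fell, DDX58 A_33_P3372910 by 0.40 (SE 0.138; limma adjusted p 0.358) and DDX58 A_33_P3418170 by 0.25 (SE 0.070; limma adjusted p 0.310). For both of them the fall was of like size with each mimic, -0.40 and -0.41 for the first probe and -0.21 and -0.295 for the second. LGP2 behaved likewise, as DHX58 fell by 0.34 (SE 0.078; limma adjusted p 0.280), with -0.40 on the miR-511 arrays and -0.28 on the control arrays. OAS2 A_33_P3225522 fell by 0.35 (SE 0.080; limma adjusted p 0.277), with -0.43 and -0.27.

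The other OAS2 probes gave -0.29 (SE 0.197) and -0.44 (SE 0.239), values that came from the miR-511 arrays, at -0.62 and -0.78, more than from the control arrays, at 0.04 and -0.10. OAS3 A_24_P335305 gave 0.13 (SE 0.284), from -0.35 between the miR-511 arrays and 0.61 between the control arrays. IFIH1 was at 0.03 (SE 0.086, 95% interval -0.205 to 0.27), EIF2AK2 A_23_P142750 at -0.10 (SE 0.091), MAVS between -0.16 and -0.02 over its 3 probes and ADAR at -0.01 (SE 0.069, 95% interval -0.20 to 0.18). The helicase genes thus differed in whether they passed: RIG-I and LGP2 did, and MDA5 did not, although the difference between those genes was not itself tested.

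Calls between experiments rest on few arrays. Leaving out 1 array leaves a single array in 1 group, so only the log2 differences of these fits are given here. Counts past the threshold stand in the last section, where those over all probes moved too. Without the miR-511 array of experiment 1, OAS1 was at -0.41 instead of -0.71, and DDX58 A_33_P3372910 at -0.29 instead of -0.40. Without the control array of experiment 1, OAS1 was at -1.01 and DDX58 A_33_P3418170 at -0.22. Probes outside the 5 moved as well. OAS3 A_24_P335305 was at 0.51 without the miR-511 array of experiment 2. Without the control array of experiment 2, OAS2 A_33_P3225512 was at -0.54 and OAS2 A_23_P204087 at -0.76. A term for the mimic left 3 of 15, against 2615 of 22638 over all tested probes. DDX58 A_33_P3418170 and OAS1 were then no longer past the threshold. With normexp 4 of 15 passed, against 3174 of 22638. There DDX58 A_33_P3372910 (-0.26) and OAS1 no longer passed and MAVS A_33_P3244021 (-0.19) did.

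**Figure D3:**
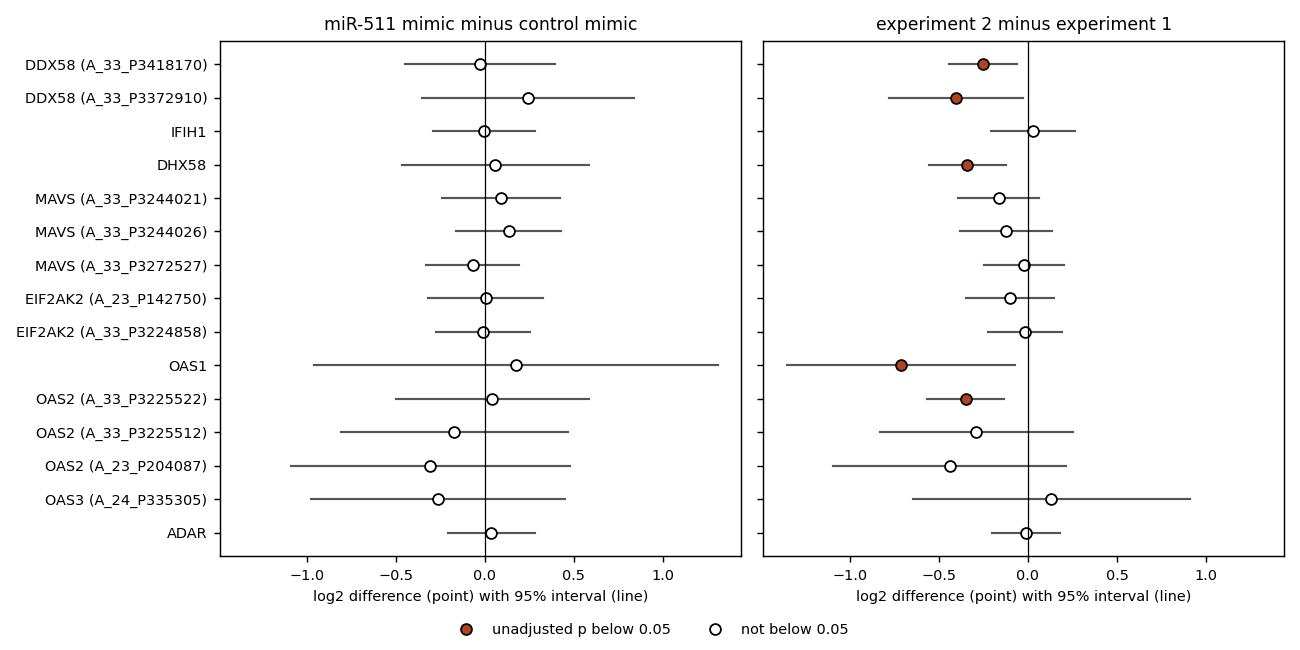
Log2 differences (points) with 95% intervals (lines) of the 15 tested member probes, with the mimics compared (miR-511 minus control) on the left and experiment 2 minus experiment 1 on the right; filled points passed the unadjusted limma threshold. No point is filled on the left, and the 5 on the right, DDX58 (both probes), DHX58, OAS1 and OAS2 A_33_P3225522, all lie left of 0.

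Genes around the sensors were described from lists of regulators, partners and products, 89 genes with 114 tested probes. Between the mimics 0 of 114 passed the unadjusted threshold, against the 2.20% of all tested probes, and 0 passed after adjustment in limma. Between the experiments 1 of 114 was higher and 11 lower in experiment 2, against the 13.6%. Leaving out single arrays moved these counts, as it did those of all tested probes (last section). Among 26 regulators and signalling genes of the RIG-I-like receptors (36 probes), 2 passed and both were lower: IRF7, the interferon-inducible transcription factor, by a log2 difference of -0.395, and RIPK1, a kinase of the MAVS complex, by -0.22. IRF7 read 11.435 with miR-511 and 11.57 with control in experiment 1, and 11.05 and 11.16 in experiment 2. In the PKR and eIF2 arm (14 probes) 1 passed, PPP1R15A, which recruits the phosphatase that reverses eIF2 phosphorylation, and it was higher in experiment 2 by 0.28. None passed among the ADAR family (4 probes) or other proteins that bind double-stranded RNA (23 probes), where TLR3, the endosomal receptor of this ligand, and ZBP1 were well above background on 0 arrays.

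Interferon-induced transcripts, the usual readout of these sensors, were lower in experiment 2 at 30 of 32 tested probes, with a median log2 difference of -0.275, beside 11827 of 22638 lower and a median of -0.01 over all tested probes. Of the 32 probes, 9 passed the unadjusted threshold, against 13.6% of all tested probes in either direction, and all were lower: IFI6 at -0.66, IRF9 at -0.58, IFIT5 at -0.46, IFITM1 at -0.42, ISG15 at -0.365, XAF1 at -0.36, IFI27 at -0.28, IFIT2 at -0.275 and HERC5 at -0.24. None passed after adjustment in limma, the smallest adjusted p being 0.218 for IFI6. IFI6, which encodes a mitochondrial antiviral protein, read 8.63 with miR-511 and 8.51 with control in experiment 1, and 7.87 and 7.96 in experiment 2. IRF9, the DNA-binding subunit of the factor that interferon activates, read 9.002 and 8.82, then 8.33 and 8.33. Both genes were lower on each array of experiment 2 than on either of experiment 1, whichever mimic was used. MX1 (-0.56), IFIT1 (-0.46) and IFIT3 (-0.40) did not pass, with the array of miR-511 in experiment 2 the lowest for each, as it was for 21 of the 32 probes. That count, too, was not made over all tested probes.

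IFNB1, the interferon gene that RIG-I and MDA5 signalling switches on, and CXCL11 were well above background on 0 arrays. CXCL10, IFI44L and NLRP1 A_24_P83615, singled out after their values were seen, were well above background on both control arrays and on neither miR-511 array. These probes entered the tested set only through the control arrays, so their direction follows from that selection. On each miR-511 array the bound was the lowest signal well above background or the measured value, whichever was higher. Against this bound the mean of the control arrays was 1.63-fold higher at CXCL10 A_33_P3343175 and 1.30-fold at CXCL10 A_24_P303091. It was 1.52-fold higher at IFI44L and 1.48-fold at NLRP1, a sensor of the inflammasome. A probe can lie above the lowest signal well above background and still lack that mark, so these folds are no guaranteed minimum. The limma adjusted p was 0.9999 for each. Marker lists also moved between experiments, where 13.6% of all tested probes passed: 4 of 15 myeloid probes passed and were lower in experiment 2. Of the 15, 12 were lower and 3 higher, with a median of -0.10. The summed normalised intensity of the 15 was 459600 to 471500 on the arrays of experiment 1 and 401300 to 427300 on those of experiment 2. The brightest probes, AZU1, ELANE and PRTN3, weigh most in that sum, and none of them passed. The keratin probes of the epithelial list passed at 2 of 3 and were lower, those of the T cell list at 2 of 5 and were higher, and of the erythroid list 1 of 3 passed. Their part in the differences between experiments was not tested.

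**Figure D4:**
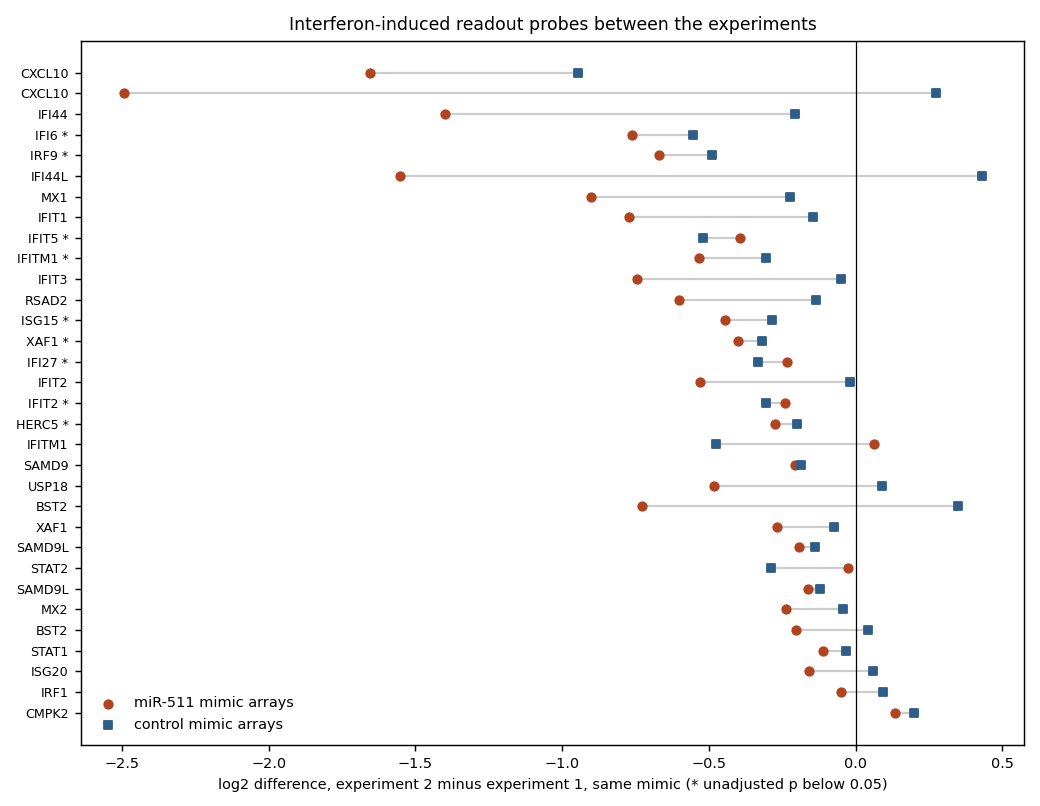
Log2 difference between experiment 2 and experiment 1 (x axis) for the 32 tested probes of interferon-induced genes (y axis, ordered by their mean difference), with circles for the miR-511 arrays and squares for the control arrays; asterisks mark an unadjusted limma p under the threshold. Both symbols lie left of 0 for all 9 marked probes, such as IFI6 and IRF9, whereas for CXCL10 A_24_P303091 and IFI44L they lie on opposite sides.

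The genes whose centred log2 values over the 4 arrays were nearest to the mean of the members' brightest probes were HIF1AN, CDKN1A, C5orf54, EPPK1 and SPATA2L, at Euclidean distances of 0.0147 to 0.0291 among 13866 genes. The members' mean was 0.18 on the miR-511 array and 0.02 on the control array of experiment 1, and -0.16 and -0.03 in experiment 2. With 4 arrays many genes come close to any such profile, so this is a description of these arrays.

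Promoters of the sensors were read because interferon acts on many of them through a repeated GAAA element. RefSeq promoters (GRCh38.p14, 250 bases before to 50 after the start) were available in the table for 7 of the 9 genes, all but DHX58 and OAS2. They were searched for GAAANNGAAA and, on the other strand, TTTCNNTTTC; no other motif was searched. The motif was held by 3.57% of 35116 promoters and by those of 3 members, IFIH1, EIF2AK2 and OAS3. IFIH1 held 3 matches, of which the first 2 overlap, EIF2AK2 held 1 and OAS3 held 2. These are 60-base windows around 1 match per gene, 5′ to 3′ on the gene's strand with the match in capitals, at chr2:162318671-162318730 (minus strand), chr2:37156952-37157011 (minus strand) and chr12:112938306-112938365 (plus strand).
IFIH1: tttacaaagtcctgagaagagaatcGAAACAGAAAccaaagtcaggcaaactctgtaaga
EIF2AK2: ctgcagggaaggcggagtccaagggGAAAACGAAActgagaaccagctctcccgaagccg
OAS3: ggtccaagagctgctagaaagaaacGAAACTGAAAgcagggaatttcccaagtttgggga
The match ended 12 bases before the start in IFIH1, reached from 6 bases before it into the transcript in EIF2AK2 and ended 134 bases before it in OAS3. No match lay in these windows for DDX58, MAVS, OAS1 or the 3 ADAR promoters, which says only that these letters are not there. Among genes past the threshold between experiments, DDX58 and OAS1 had no match here, and DHX58 and OAS2 had no promoter to search. The 3 genes with a match were not past it. Whether the motif relates to these differences was not tested.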

How the data were processed

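Total RNA of THP1 cells was hybridised to 4 single-dye Agilent 4x44K v2 arrays. The authors deposited 1 scanner file per array (Agilent Feature Extraction 10.7.3.1 per the file headers), whose processed intensity had its background subtracted and was detrended by that software, and a table of quantile-normalised log2 values. From the scanner files, spots marked by the software were left out, the log2 of the intensity was quantile normalised over 43118 non-control spots, spots of 1 probe were averaged, and a probe was tested if both arrays of either mimic had it well above background. Quantile normalisation makes the arrays' distributions equal, so a shift of most transcripts would not be seen. limma 3.58.1 (R 4.3.3; lmFit, eBayes, 4.14 degrees of freedom, two-sided) compared mimics and, on the same probes, experiments, each without a term for the other. A probe passed at an unadjusted p below 0.05, beside Benjamini-Hochberg values over all tested probes. The study's further condition over identical replicate probes was not applied, since member probes are printed once. The functions were tested on simulated data. The labels number the experiments, and same-numbered arrays deviated together from the means of their mimics (correlation 0.271 over probes). Array names are kept: 16 of 16 member probes matched RefSeq (GRCh38.p14) by accession, DDX58 under its current symbol RIGI. Probe positions are those of the files (hg19), and exons were not analysed here. Named were all members with every probe, list genes past the threshold in either comparison, and the 5 genes nearest to the members' mean profile. Other list genes, such as MX1, IFIT1, IFIT3, CXCL10, IFI44L, NLRP1, TLR3, ZBP1, IFNB1 and CXCL11, and the markers were named outside this rule, after their values were seen. Members and lists were chosen with earlier results of these data known. Results for a few genes of these lists are not reported here.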

Additional observations from a re-analysis of the deposited data

How the results depend on the processing

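With the experiment number as a replicate block, 0 member probes, 2 of the list probes and 894 of all probes passed between the mimics, against 0, 0 and 498 without it, and it changed no other call of a member. Between the mimics the count over all probes was 265 with normexp background correction (offset 50) and 1029 without the filter on dim probes, and that of the lists was 1 with 75th percentile scaling, 2 without the filter and 1 with a plain equal-variance test, while the members stayed at 0 in each. Between experiments the members' count was 3 of 15 with that equal-variance test, against 2561 of 22638 over all probes. It was 3 of 15 with the treatment as a block, against 2615 of 22638, and 4 of 15 with normexp, against 3174 of 22638. Without the filter it was 4 of 16, against 3436 of 34083. These 4 included the added probe OAS3 A_33_P3402489, which no array showed well above background. DDX58 A_33_P3372910 and OAS1 lost their calls with normexp (-0.261 and -0.204), without the filter and with the equal-variance test, and MAVS A_33_P3244021 gained one with normexp (-0.192). Values close to 0 changed sign: EIF2AK2 A_33_P3224858 was 0.036 between mimics and MAVS A_33_P3272527 0.156 between experiments with normexp, and ADAR was 0.020 between experiments with 75th percentile scaling. The cause was not tested.

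Leaving out 1 array at a time gave 0 to 2 member probes, 1 to 8 list probes and 713 to 1438 of all probes between mimics, and 1 to 4, 6 to 14 and 1885 to 3135 between experiments, so that the remaining array of a group was taken to vary like the others. Between mimics the log2 difference then ran from -0.172 to 0.123 for DDX58 A_33_P3418170, 0.036 to 0.448 for DDX58 A_33_P3372910, -0.073 to 0.066 for IFIH1, -0.145 to 0.260 for DHX58, -0.009 to 0.187 for MAVS A_33_P3244021, 0.072 to 0.197 for MAVS A_33_P3244026, -0.107 to 0.117 for EIF2AK2 A_23_P142750, -0.058 to 0.034 for EIF2AK2 A_33_P3224858, -0.383 to 0.740 for OAS1, -0.170 to 0.259, -0.474 to 0.140 and -0.693 to 0.082 for OAS2 (A_33_P3225522, A_33_P3225512 and A_23_P204087) and -0.571 to 0.042 for OAS3 A_24_P335305. Between experiments it ran from -0.025 to 0.087 for IFIH1, -0.087 to 0.048 for MAVS A_33_P3272527, -0.060 to 0.026 for EIF2AK2 A_33_P3224858, -0.241 to 0.509 for OAS3 A_24_P335305 and -0.040 to 0.020 for ADAR. Keeping marked spots, the deposited table and a filter on all 4 arrays left the members' counts at 0 and 5. With a single slide, no slide block could be fitted.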
